A study of Mus musculus with 2 samples.

Results

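The genes of the tumour necrosis factor (TNF) ligand and receptor superfamilies and of the TNF receptor-associated factors (TRAFs) were compared between regulatory T cells (Tregs) of adipose tissue with and without a floxed Hif1a gene. The members were all protein-coding rows of the deposited table whose symbol begins with Tnfrsf, Tnfsf or Traf and a digit, together with 16 genes named outright, such as Tnf, Fas and Cd40. This gave 43 of 10219 listed genes, made up of 17 receptors, 11 ligands and 15 adaptors. In GENCODE M21, a mouse gene annotation, the same rule finds 57 protein-coding genes. The other 14, among them the receptor genes Ltbr, Tnfrsf14 and Tnfrsf21 and the ligand genes Tnfsf4, Tnfsf18 and Cd70, were not analysed here. Both libraries came from C57BL/6 mice aged 4 months. The control genotype was Foxp3Cre and the knockout genotype was Hif1afl/fl;Foxp3Cre, so both carried Cre under control of Foxp3, the lineage factor of Tregs, and the knockout carried floxed Hif1a as well. The sources used here give neither the number of mice behind a library nor the sort markers or the floxed part of Hif1a. With 1 library per genotype there was no replicate, and every difference below compares 2 libraries.

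TNF family ligands are mostly trimers on the surface of immune cells, and their receptors pass the signal on through adaptor proteins rather than through enzyme activity of their own. Receptors such as OX40, GITR and 4-1BB bind TRAFs and act as costimulators of T cells, including Tregs, through NF-kappaB. Receptors with a death domain, such as Fas and TNFR1, can recruit FADD or TRADD and RIPK1 and so lead either to cell death or to NF-kappaB activity. TRAF2 and TRAF3 also keep the kinase NIK, encoded by Map3k14, at a low level and thereby restrain the alternative NF-kappaB pathway.

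Over the listed genes the knockout library held 11337415 counts and the control library 13472317, with 48 to 14062 counts per member in the former and 24 to 59264 in the latter. Levels are given as CPM, counts per 1000000 counts of the library after TMM scaling. Hif1a, the targeted gene, stood at 780 CPM in the knockout, against 1273 CPM in the control, which was 1.63-fold lower (95% counting interval 1.59 to 1.68), in a count that includes exons outside any floxed part. All 13 pan T cell markers were listed and within 2-fold, with log2 ratios from -0.48 to 0.91. Of the 4 Treg markers, 2 were lower by 2-fold or more. Foxp3 stood at 46.4 CPM (knockout) and 104 CPM (control), 2.24-fold lower (2.02 to 2.48), and Il2ra at 608 CPM and 4346 CPM, 7.14-fold lower (6.97 to 7.32). Ctla4 and Ikzf2 had log2 ratios of -0.52 and -0.14. All 7 adipose Treg markers were lower by 2-fold or more in the knockout, from Ccr2 at a log2 ratio of -1.04 to Klrg1 at -5.18. Of 17 macrophage markers in the list 6 were measured, each higher by 2-fold or more. The lowest mean of both counts over all listed genes was 50.5. Lyz2, Pf4 and Fcgr1, with 35, 32 and 50 control counts, are thus listed only through their knockout counts. Conversely, the adipose Treg marker Pparg and the dendritic cell marker Xcr1, with 48 and 47 knockout counts, are listed only through their control counts. The levels of the 6 macrophage markers summed to 3657 CPM in the knockout, against 245 CPM in the control. Of 8 measured dendritic cell markers, of 11, 6 were higher and 1, Xcr1, was lower by 2-fold or more. They summed to 3068 CPM and 980 CPM, mostly from Cd74, Ccr7 and the H2 genes. Cd74 alone stood at 1068 CPM and 362 CPM. Flt3 stood at 21.1 CPM and 10.4 CPM, Zbtb46 at 15.9 CPM and 5.79 CPM, and Xcr1 at 4.09 CPM and 13.8 CPM. The part of these other cells in the results below was not tested. In bulk RNA, fewer cells of a type and less RNA per cell cannot be told apart.

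Within the family the largest differences lay among receptors. Of 43 members, 11 were higher in the knockout by 2-fold or more, beside 10.9% of all listed genes, and 7 were lower by as much, beside 8.41% of all listed genes. These are 25.6% and 16.3% of the members; together they make 41.9%, beside 19.3% of all listed genes, and 25 members were within 2-fold. At 1.5-fold, 16 members were higher and 14 lower, beside 20.2% and 18.5% of all listed genes. At 4-fold, on the same scale, 4 were higher and 1 was lower, beside 3.42% and 1.58%; Traf5 and Tnfsf13b lay just under it, at log2 ratios of 1.95 and 1.74. By sign alone, 22 of the 43 members were higher, beside 50.4% of all listed genes. The 2-fold rule was applied to the log2 ratio of CPM + 0.5. The members' median log2 ratio was 0.20, from -4.27 for Tnfrsf8 to 2.77 for Tnfrsf26, beside a median of 0.0054 over all listed genes. Scaling on the pan T cell markers turned the sign of the members' median, to -0.0066, and changed the split from 11 higher and 7 lower (61.1% higher) to 9 higher and 9 lower (50% higher). In that scaling the median of all listed genes moved by -0.20. By role, 6 receptors were higher and 4 lower, 4 ligands were higher and 2 lower, and 1 adaptor was higher and 1 lower. The levels of the receptors summed to 4268 CPM in the knockout, against 8709 CPM in the control. Without Tnfrsf9 the sums were 3048 CPM and 4251 CPM. The ligands summed to 734 CPM and 499.7 CPM in the same order, and the adaptors to 1290 CPM and 1460 CPM.

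**Figure D1:**
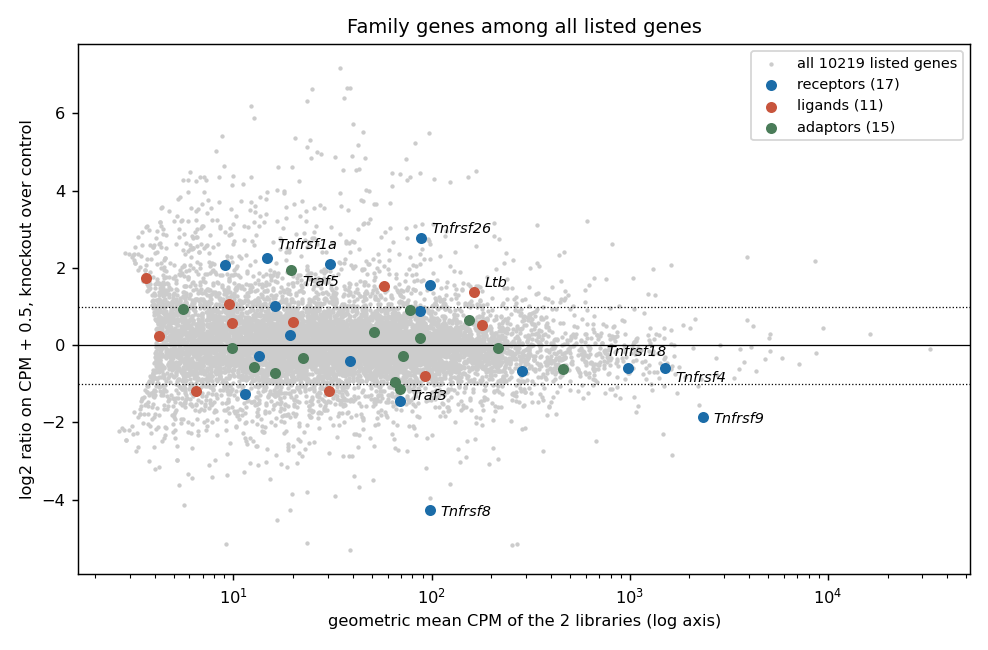
Each point is a gene, with the geometric mean of its CPM in the 2 libraries on a log axis and its log2 ratio of knockout over control on CPM + 0.5. Grey points are the 10219 listed genes, coloured points are the 17 receptors, 11 ligands and 15 adaptors, and dotted lines mark 2-fold. Tnfrsf8 lies lowest among the members at -4.27 and Tnfrsf26 highest at 2.77.

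Promoter sequences of 35 of the 43 members were found by symbol in a RefSeq table (GRCm38.p6). The windows below hold the 250 bases upstream of the start, 5′ to 3′ on the gene's strand. They are shown because Tnfrsf8 and Tnfrsf9 were the receptors with the lowest ratios, Traf3 was the adaptor with the lowest ratio, Ltb was the most abundant ligand per kilobase of exon and Tnfrsf1a was the higher receptor with the largest ratio among those with a sequence. Capitals mark the hypoxia response cores ACGTG and GCGTG, to which HIF dimers can bind, and matches to the kappaB consensus, both searched on both strands.
Tnfrsf8, chr4:145315165-145315414, minus strand: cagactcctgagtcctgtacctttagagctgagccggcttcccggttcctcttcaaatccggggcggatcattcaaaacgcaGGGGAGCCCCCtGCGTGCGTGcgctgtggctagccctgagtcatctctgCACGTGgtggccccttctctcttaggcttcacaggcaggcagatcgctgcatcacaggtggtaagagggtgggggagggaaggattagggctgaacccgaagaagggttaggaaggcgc
Tnfrsf9, chr4:150927749-150927998, plus strand: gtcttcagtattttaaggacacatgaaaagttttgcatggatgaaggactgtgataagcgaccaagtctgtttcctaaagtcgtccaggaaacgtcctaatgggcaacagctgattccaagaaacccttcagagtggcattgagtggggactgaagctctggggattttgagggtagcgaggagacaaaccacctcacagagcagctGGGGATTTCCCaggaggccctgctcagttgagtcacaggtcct
Traf3, chr12:111166120-111166369, plus strand: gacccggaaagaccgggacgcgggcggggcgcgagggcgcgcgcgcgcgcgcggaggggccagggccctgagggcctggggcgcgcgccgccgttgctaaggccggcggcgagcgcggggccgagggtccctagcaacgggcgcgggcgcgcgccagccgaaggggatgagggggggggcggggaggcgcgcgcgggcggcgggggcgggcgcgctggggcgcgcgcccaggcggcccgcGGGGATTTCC
Ltb, chr17:35194257-35194506, plus strand: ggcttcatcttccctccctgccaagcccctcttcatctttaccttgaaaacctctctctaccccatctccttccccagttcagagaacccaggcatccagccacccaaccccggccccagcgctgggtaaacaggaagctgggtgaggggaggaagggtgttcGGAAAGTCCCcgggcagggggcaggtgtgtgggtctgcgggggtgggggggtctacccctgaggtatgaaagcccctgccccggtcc
Tnfrsf1a, chr6:125349473-125349722, plus strand: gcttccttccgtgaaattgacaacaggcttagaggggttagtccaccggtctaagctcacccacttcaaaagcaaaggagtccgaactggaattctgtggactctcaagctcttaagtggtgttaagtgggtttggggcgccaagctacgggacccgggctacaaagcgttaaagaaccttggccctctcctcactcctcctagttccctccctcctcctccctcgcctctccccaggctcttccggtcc
Tnfrsf8 held 4 core matches, which overlap one another in pairs, and 2 overlapping kappaB matches. Tnfrsf9 held 2 overlapping kappaB matches at this start and none at its other start in the table. Traf3 and Ltb held 1 kappaB match each, and Tnfrsf1a held neither motif. Of all 32841 windows of this length, 38.6% held a hypoxia core and 7.25% a kappaB match. Of the members' 43 windows, 51.2% held a core and 20.9% a kappaB match. The windows of Tank overlap in pairs and each held a kappaB match, so this gene counts more than once. Counted by gene over any start, a core was found in 2 of 5 lower, 3 of 9 higher and 13 of 21 other members, and a kappaB match in 4 of 5, 1 of 9 and 1 of 21. A share by gene over all genes was not computed, so nothing is read from these counts. A match describes the letters of these windows only.

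The 4 receptor genes that were lower in the knockout by 2-fold or more were Tnfrsf8, Tnfrsf9, Tnfrsf25 and Tnfrsf10b. Tnfrsf8 (ENSMUSG00000028602) encodes CD30, an activation-induced receptor of lymphocytes, and its promoter window carried the 4 core matches above, which overlap in pairs. A core was also found in 13 of the 21 members within 2-fold that had a sequence, and any role of it was not tested. Tnfrsf8 had 253 counts (22.0 CPM) in the knockout, against 5770 counts (434 CPM) in the control. It was thus 19.7-fold lower (17.4 to 22.4), the 7th lowest log2 ratio of all listed genes. Tnfrsf9 (ENSMUSG00000028965) encodes 4-1BB, a costimulator that activated T cells and Tregs carry. It had 14016 counts (1220 CPM) in the knockout, against 59264 counts (4458 CPM) in the control, a 3.65-fold lower level (3.59 to 3.72). Tnfrsf9 alone made up 41.8% of the members' summed CPM in the control library and 19.4% in the knockout library. Tnfrsf25 (ENSMUSG00000024793) encodes DR3, a death domain receptor that costimulates T cells on binding TL1A. It stood at 41.8 CPM from 480 counts against 115 CPM from 1524 counts, 2.74-fold lower (2.48 to 3.05). Tnfrsf10b (ENSMUSG00000022074), the mouse death receptor for TRAIL, stood at 7.22 CPM from 83 counts against 18.0 CPM from 239 counts, 2.49-fold lower (1.93 to 3.23). The first 3 of these receptors had counting intervals wholly beyond 2-fold, and that of Tnfrsf10b reached below 2-fold, as did its log2 ratio with a pseudocount of 5 CPM, -0.91. The Treg markers Foxp3 and Il2ra were lower in the same library by the values above, and their part in these differences was not tested.

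Tnfrsf4, Tnfrsf18 and Tnfrsf1b, costimulatory receptors that Tregs are known to carry, were lower by less than 2-fold. Tnfrsf4, which encodes OX40, stood at 1224 CPM (14062 counts) in the knockout, against 1842 CPM (24487 counts) in the control, 1.51-fold lower (1.47 to 1.54). Tnfrsf18, which encodes GITR, stood at 798 CPM from 9167 counts, against 1210 CPM from 16089 counts, 1.52-fold lower (1.48 to 1.56). Gm16008, an antisense gene in GENCODE M21, overlaps 27.2% of the exon bases of Tnfrsf18, and whether the counting used strand is not given, so without strand their reads cannot be told apart. Tnfrsf1b, which encodes TNFR2, stood at 227 CPM from 2608 counts, against 362 CPM from 4810 counts, 1.59-fold lower (1.52 to 1.67).

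Because 4-1BB differed more than OX40 and GITR, the order of the most abundant receptors was not the same in the 2 libraries. Per kilobase of exon in GENCODE M21, the control library had Tnfrsf9 first at 1638 CPM per kb, then Tnfrsf4 at 1350, Tnfrsf18 at 794 and Tnfrsf8 at 125 CPM per kb. The knockout library had Tnfrsf4 first at 897 CPM per kb, then Tnfrsf18 at 523.5 and Tnfrsf9 at 448 CPM per kb. Tnfrsf8 moved from rank 4 to rank 30 of the 43 members on this scale. Tnfrsf4 remained among the most abundant genes of the table per kilobase, at rank 30 in the control and rank 43 in the knockout library of the 10200 genes with a length.

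**Figure D2:**
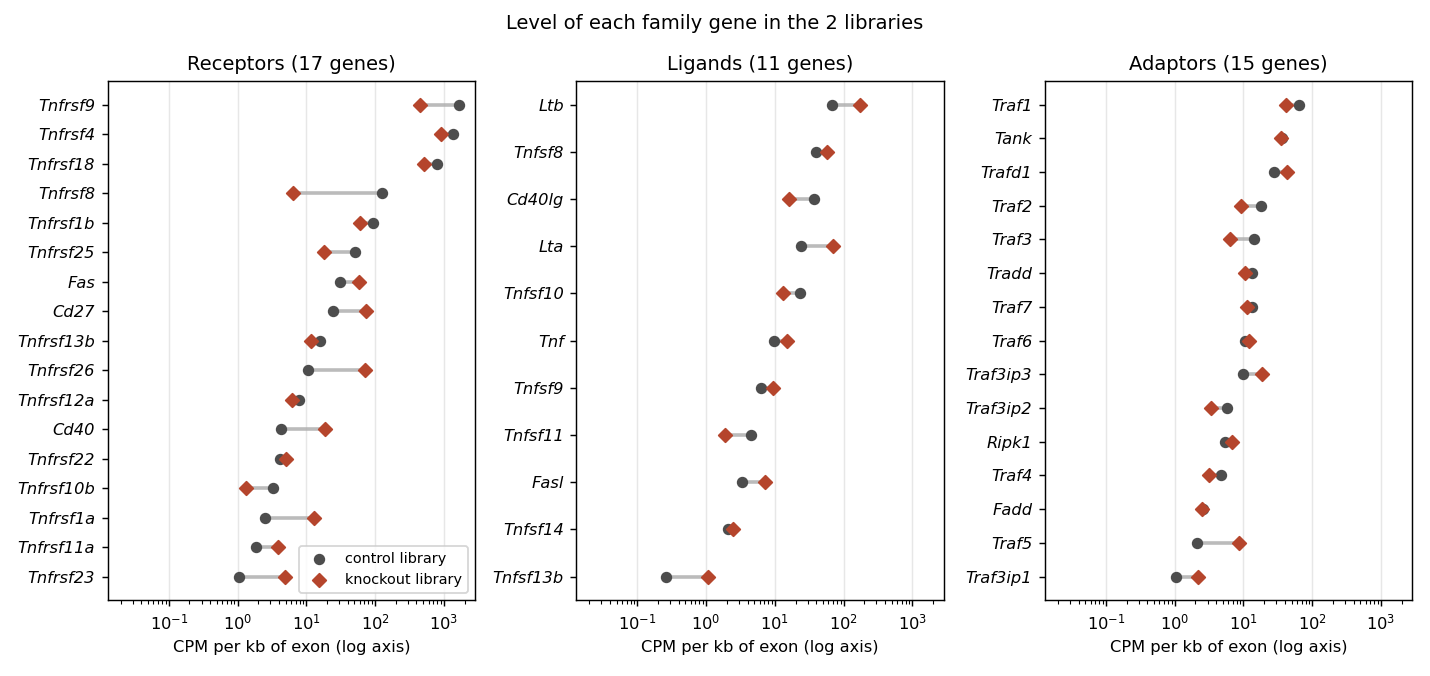
Level of each family gene as CPM per kilobase of exon on a log axis, in the control library (circles) and the knockout library (diamonds), with 1 panel each for 17 receptors, 11 ligands and 15 adaptors, ordered by the control level. Tnfrsf9 stands at 1638 CPM per kb in the control and 448 in the knockout library, and Tnfrsf8 at 125 and 6.37 CPM per kb.

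The 6 receptor genes that were higher in the knockout by 2-fold or more were Tnfrsf26, Tnfrsf1a, Tnfrsf23, Cd40, Cd27 and Tnfrsf11a. Tnfrsf26 (ENSMUSG00000045362), a receptor gene of a mouse cluster that also holds decoy receptors for TRAIL, had 2664 counts (232 CPM) in the knockout, against 447 counts (33.6 CPM) in the control. It was 6.89-fold higher (6.24 to 7.64). Tnfrsf1a (ENSMUSG00000030341) encodes TNFR1, the broadly expressed death domain receptor of TNF. It stood at 33.2 CPM from 382 counts against 6.54 CPM from 87 counts, 5.08-fold higher (4.01 to 6.49). Tnfrsf23 (ENSMUSG00000037613), a decoy TRAIL receptor, stood at 19.4 CPM from 223 counts against 4.21 CPM from 56 counts, 4.61-fold higher (3.42 to 6.29). Cd40 (ENSMUSG00000017652), the receptor through which T cells activate B cells, dendritic cells and macrophages, stood at 64.6 CPM from 742 counts against 14.7 CPM from 195 counts. It was 4.40-fold higher (3.75 to 5.18). Cd27 (ENSMUSG00000030336), a costimulator of naive and memory T cells, stood at 169 CPM from 1947 counts against 57.4 CPM from 763 counts, 2.95-fold higher (2.71 to 3.21). Tnfrsf11a (ENSMUSG00000026321) encodes RANK, a receptor of myeloid and dendritic cells. It had 267 and 149 counts, at 23.2 CPM and 11.2 CPM, and was 2.07-fold higher (1.69 to 2.55), a ratio that pan T cell scaling, or a pseudocount of 1 or 5 CPM, brought below 2-fold. Tnfrsf1a, Cd40 and Tnfrsf11a are also expressed by macrophages or dendritic cells, whose measured markers had median log2 ratios of 5.18 and 1.47. Of the dendritic cell markers, Cd74, Ccr7 and the H2 genes held most of the level, and Xcr1 was lower, at -1.64. The part of these cells in the differences was not tested.

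The remaining 4 receptor genes were within 2-fold. Fas, which encodes the receptor of Fas ligand, stood at 120 CPM from 1376 counts against 64.5 CPM from 857 counts, 1.86-fold higher (1.70 to 2.03). Tnfrsf13b, which encodes the BAFF and APRIL receptor TACI, stood at 33.6 CPM against 45.1 CPM, a log2 ratio of -0.42. Tnfrsf12a, the gene of the TWEAK receptor Fn14, and Tnfrsf22, a decoy TRAIL receptor gene, had log2 ratios of -0.29 and 0.25, with counting intervals that included no difference. Over all 17 receptors the median log2 ratio was -0.29 and the mean was 0.088, which differ in sign.

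Of the ligands, Ltb, Lta, Fasl and Tnfsf13b were higher in the knockout by 2-fold or more. Ltb (ENSMUSG00000024399) encodes lymphotoxin beta, which anchors lymphotoxin alpha in the membrane, and its window above held 1 kappaB match. It had 3025 counts (263 CPM) in the knockout, against 1349 counts (101 CPM) in the control, 2.59-fold higher (2.43 to 2.77). Lta (ENSMUSG00000024402), the gene of lymphotoxin alpha, stood at 98.3 CPM from 1130 counts against 33.55 CPM from 446 counts, 2.93-fold higher (2.62 to 3.28). Tnf lies between both genes and encodes the cytokine of the family name. It stood at 24.7 CPM from 284 counts against 16.0 CPM from 213 counts, 1.54-fold higher (1.29 to 1.85). Fasl (ENSMUSG00000000817), the death-inducing ligand of cytotoxic lymphocytes, had 161 and 85 counts, at 14.01 CPM and 6.39 CPM, and was 2.19-fold higher (1.67 to 2.88). With scaling on pan T cell markers, or with a pseudocount of 5 CPM, Fasl was within 2-fold. Tnfsf13b (ENSMUSG00000031497) encodes BAFF, a survival factor of B cells made chiefly by myeloid and stromal cells. It had 83 and 24 counts, at 7.22 CPM and 1.81 CPM, and was 4.00-fold higher (2.51 to 6.59), in the library in which the 6 macrophage markers summed to 3657 CPM against 245 CPM. At these low levels a pseudocount of 5 CPM brought the log2 ratio of Tnfsf13b from 1.74 to 0.84.

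Tnfsf11 and Cd40lg were the ligand genes at least 2-fold lower. Tnfsf11 (ENSMUSG00000022015), which encodes RANK ligand, had 48 counts (4.18 CPM) in the knockout, against 135 counts (10.2 CPM) in the control, 2.43-fold lower (1.74 to 3.45). Cd40lg (ENSMUSG00000031132), the CD40 ligand of helper T cells, had 229 counts (19.9 CPM) and 609 counts (45.8 CPM), 2.30-fold lower (1.97 to 2.69). Both counting intervals reached below 2-fold, and Tnfsf11 was within 2-fold with a pseudocount of 5 CPM. Tnfsf10, which encodes TRAIL, stood at 69.9 CPM from 803 counts against 122 CPM from 1624 counts, 1.75-fold lower (1.61 to 1.90), and passed 2-fold under pan T cell scaling. Tnfsf8, the gene of CD30 ligand, stood at 215 CPM from 2476 counts against 150 CPM from 2000 counts, 1.43-fold higher (1.35 to 1.52). Tnfsf9, which encodes 4-1BB ligand, and Tnfsf14, which encodes LIGHT, had 139 and 53 counts in the knockout library and log2 ratios of 0.57 and 0.24. The interval of Tnfsf14 included no difference. In all, 8 ligands had a higher and 3 a lower level in the knockout library, beside 50.4% of all listed genes higher. The median log2 ratio of the ligands was 0.57. Per kilobase, Ltb was the most abundant ligand in both libraries, at 174 CPM per kb in the knockout and 66.9 CPM per kb in the control.

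**Figure D3:**
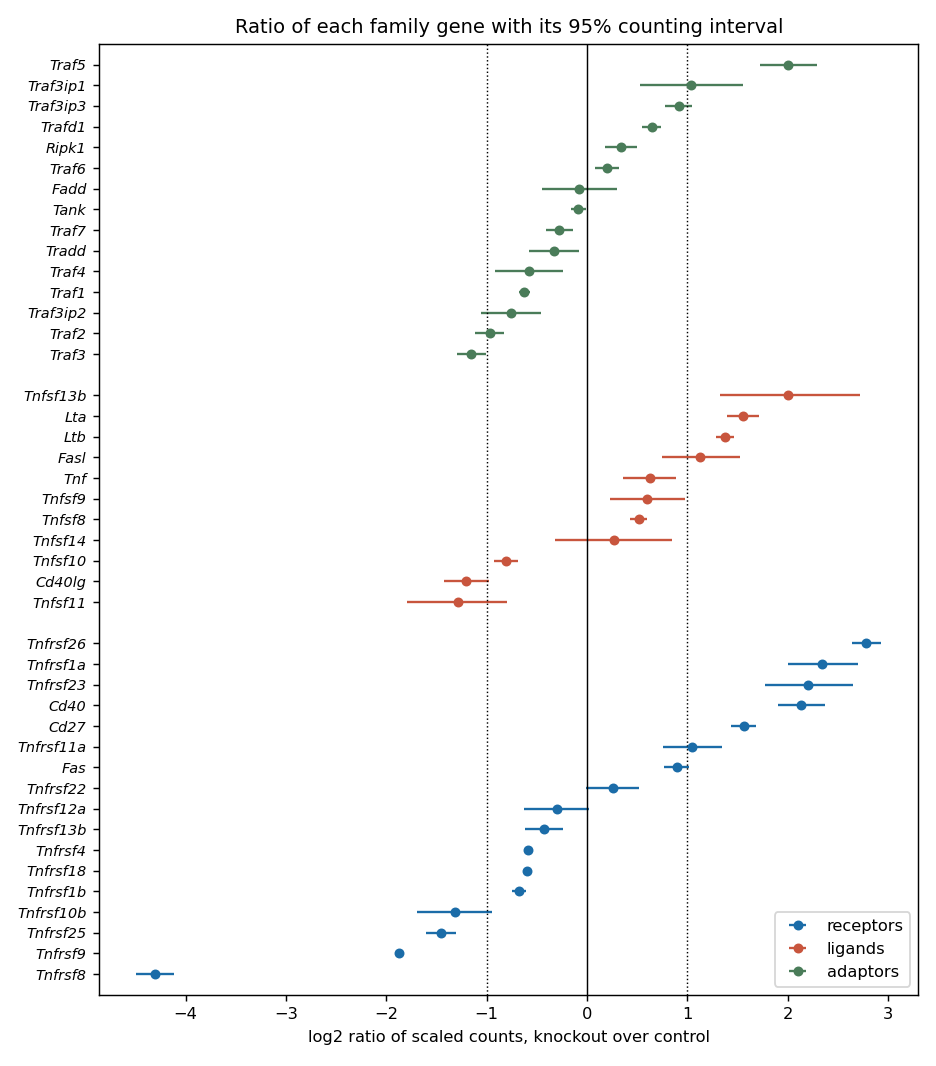
Ratio of scaled counts of the 43 family genes, knockout over control, on a log2 axis without a pseudocount; bars are 95% counting intervals, which cover counting error only, and dotted lines mark 2-fold. Intervals lie wholly beyond 2-fold for 13 genes, 9 higher and 4 lower, and include no difference for 4 genes. The same shares over all listed genes were not computed, so nothing about the family is read from these counts.

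Of 15 adaptors 13 were within 2-fold; the 2 that were not make 13.3%, beside 19.3% of all listed genes. Traf3 (ENSMUSG00000021277), the TRAF that brings NIK to degradation, had 534 counts (46.5 CPM) in the knockout, against 1373 counts (103 CPM) in the control, 2.22-fold lower (2.01 to 2.46). Traf5 (ENSMUSG00000026637), which binds receptors such as CD27, CD40 and OX40, had 451 counts (39.3 CPM) and 130 counts (9.78 CPM), 4.01-fold higher (3.30 to 4.92). Traf2, the partner of TRAF3 in the NIK complex, stood at 46.8 CPM from 538 counts against 91.7 CPM from 1219 counts. It was 1.96-fold lower (1.77 to 2.17) and passed 2-fold under pan T cell scaling. Traf1, an NF-kappaB-inducible TRAF of activated lymphocytes, was the most abundant adaptor per kilobase in the control library. It stood at 370 CPM from 4255 counts against 571 CPM from 7586 counts, 1.54-fold lower (1.48 to 1.60). Traf6, which also serves interleukin 1 and Toll-like receptors, stood at 94.0 CPM from 1080 counts against 81.8 CPM from 1087 counts, a log2 ratio of 0.20 that turned negative, to -0.0066, under pan T cell scaling. Traf7 and Traf4 had log2 ratios of -0.27 and -0.55, at 65.0 CPM against 78.6 CPM and at 10.4 CPM against 15.4 CPM. Of the 7 genes Traf1 to Traf7, 5 thus had a lower and 2 a higher level, beside 50.4% of all listed genes higher. Under pan T cell scaling 6 were lower and 1 higher. The median log2 ratio of the 7 genes was -0.55.

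Adaptors of the death domain and TRAF-interacting proteins lay near or within 2-fold. Ripk1, the kinase shared by survival and death signals of TNFR1, stood at 57.7 CPM from 663 counts against 45.5 CPM from 605 counts, 1.27-fold higher (1.13 to 1.42). Tradd and Fadd, the death domain adaptors, had log2 ratios of -0.32 and -0.07, and the interval of Fadd included no difference. Tank, a TRAF-binding protein that regulates kinases of the NF-kappaB and interferon pathways, stood at 211 CPM from 2420 counts against 223 CPM from 2969 counts, a log2 ratio of -0.08. Trafd1, a negative regulator of innate immune signals, stood at 194 CPM from 2226 counts against 124 CPM from 1645 counts, 1.57-fold higher (1.47 to 1.67). Traf3ip3, named for its binding to TRAF3, stood at 106 CPM from 1221 counts against 56.4 CPM from 750 counts, 1.88-fold higher (1.72 to 2.07). Traf3ip2, which encodes the interleukin 17 receptor adaptor Act1, had a log2 ratio of -0.73. Traf3ip1, a gene of ciliary transport, had 92 and 52 counts; its scaled counts differed 2.05-fold (1.44 to 2.93) but its log2 ratio on CPM + 0.5 was 0.95, just inside the 2-fold rule. Over the 15 adaptors the median log2 ratio was -0.08 and the mean was 0.015, which differ in sign.

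Ligand genes were also set beside receptor genes, by a list of pairs that does not hold every known receptor. Among 19 known ligand and receptor pairs, both genes were measured in 11; 7 of these had opposite signs and 4 the same sign, where 50.4% of all listed genes lay above 0, and nothing about the pairs is read from that count. The 11 pairs hold 9 ligands and 9 receptors, since Tnf, Lta, Tnfrsf1a and Tnfrsf1b each stand in more than 1 pair. Tnfsf8 had a log2 ratio of 0.52 and its receptor gene Tnfrsf8 one of -4.27. Tnfsf9 and Tnfrsf9 had 0.57 and -1.87. For Cd40lg and Cd40 the ligand gene was lower, at -1.18, and the receptor gene higher, at 2.10. Tnfsf11 and Tnfrsf11a likewise had -1.19 and 1.02, and Tnfsf13b and Tnfrsf13b had 1.74 and -0.42. Tnf and Lta, at 0.61 and 1.54, shared the sign of Tnfrsf1a, at 2.26, and not that of Tnfrsf1b, at -0.67. Fasl and Fas were both higher, at 1.07 and 0.89, and Tnfsf10 and Tnfrsf10b both lower, at -0.80 and -1.26. The decoy TRAIL receptor genes Tnfrsf22 and Tnfrsf23 were not in the list of pairs. Their log2 ratios, 0.25 and 2.08, had the opposite sign to that of Tnfsf10. The 2 genes of a pair can be expressed by different cells.

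**Figure D4:**
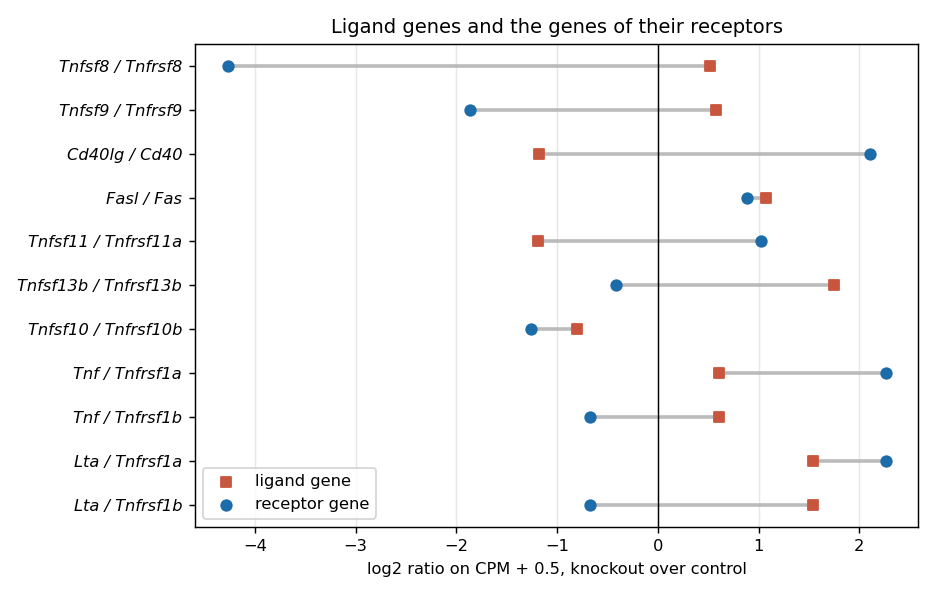
Log2 ratio of knockout over control on CPM + 0.5 for the ligand gene (square) and the receptor gene (circle) of the 11 pairs with both genes measured. In 7 pairs the symbols lie on opposite sides of 0, with the widest gap for Tnfsf8 at 0.52 and Tnfrsf8 at -4.27.

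Several members are neighbours among the protein-coding genes of GRCm38.p6 in RefSeq, and neighbours did not always have like ratios. On chromosome 17, Ltb, Tnf and Lta follow each other with no other protein-coding gene between them, at log2 ratios of 1.37, 0.61 and 1.54. On chromosome 7, Tnfrsf26, Tnfrsf22 and Tnfrsf23 follow each other, at 2.77, 0.25 and 2.08. Tnfrsf22 and Tnfrsf23 share sequence: 27.4% of the 50-base words of the Tnfrsf22 transcripts and 18.0% of those of Tnfrsf23 also occur in transcripts of another gene, so their counts are uncertain. Of the 50-base words of Tnfrsf26, 0 do. On chromosome 4, Tnfrsf1b and Tnfrsf8 are adjacent at -0.67 and -4.27, and Tnfrsf4 and Tnfrsf18 are adjacent at -0.59 and -0.60. Chromosome 4 holds 7 of the members. Of these, 6 are receptors with a lower level in the knockout library, and Tnfsf8 is the 7th. Over all listed genes 50.4% had a log2 ratio above 0. The other genes of chromosome 4 were not looked at, so nothing about the chromosome is read from that count.

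Sorted by the cells in which they are best known, the members differed in both directions. Of 12 members known chiefly from T cells, 5 were lower and 4 higher by 2-fold or more, or 41.7% and 33.3% beside 8.41% and 10.9% of all listed genes, with a median log2 ratio of -0.60, from Tnfrsf8 to Cd27. Of 9 measured members known chiefly from myeloid, B or stromal cells, of 18 in that list, 5 were higher by 2-fold or more and 0 lower, or 55.6% higher beside 10.9% of all listed genes, at a median of 1.02. Pan T cell scaling left 4 of them higher by as much, and the median at 0.82. The 5 genes were Tnfrsf1a, Cd40, Tnfrsf23, Tnfsf13b and Tnfrsf11a. Of these, Tnfrsf1a is broadly expressed, so its place in the list is loose. Tnfsf13b, with 24 control counts, is listed only through its knockout count. The members were sorted by background knowledge, with earlier results of these data known. The other 22 members had a median of -0.08, with 2 higher and 2 lower, or 9.09% in each direction. The cell type marker lists had median log2 ratios of 0.21 for pan T cells, -0.84 for the 4 Treg markers, -3.95 for adipose Tregs, 1.47 for dendritic cells and 5.18 for macrophages. Of the NK cell and ILC2 list 2 of 6 genes were measured, Nkg7 and Tyrobp, at 1.43 and 4.85. The value of Tyrobp lies within the range of the macrophage markers, 3.21 to 7.17, and which cells carried it was not tested. Of the B cell list 2 of 6 were measured, Cd79b and Ighm, at -0.31 and 1.18. The stromal marker Dcn, 1 of 7, had a log2 ratio of 1.70, and the neutrophil marker Mmp9, 1 of 4, one of -0.35. The lowest counts of any listed gene were 12 (knockout) and 14 (control). No listed marker could thus be at 0, and nothing about the cells in either library is read from that. Markers with fewer counts than these in a library are not among the listed genes. The part of these cells in the values of the members, Cd27, Fasl, Lta, Ltb and Tnfsf13b included, was not tested.

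**Figure D5:**
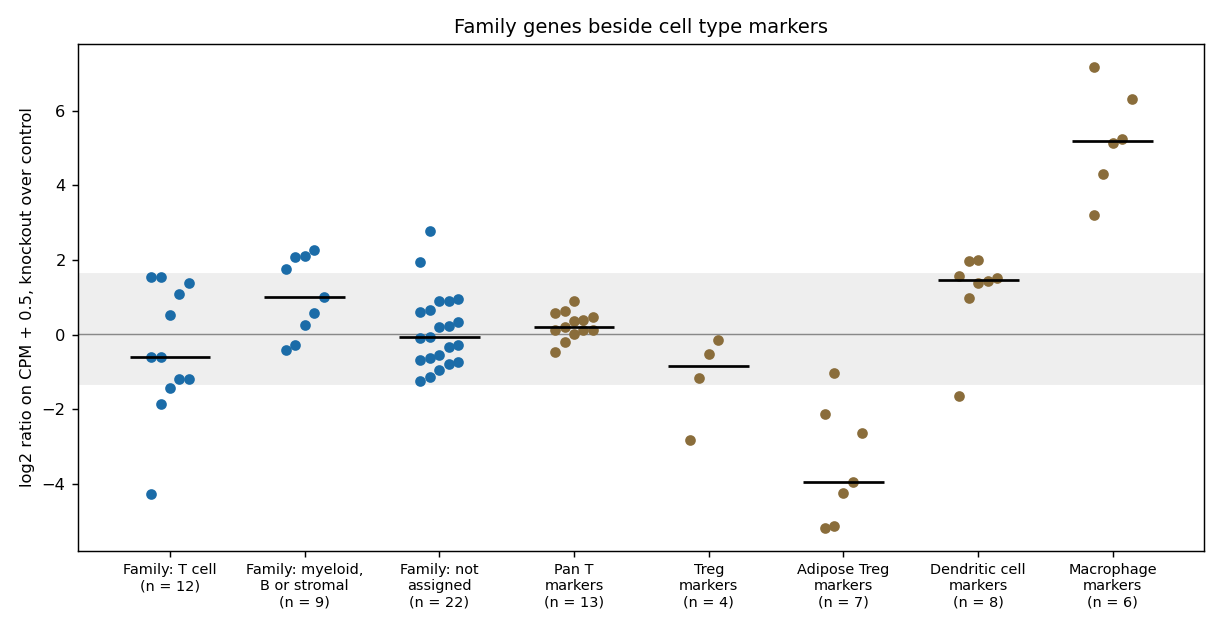
Log2 ratio of knockout over control on CPM + 0.5 for family genes grouped by the cells they are best known from (blue) and for cell type markers (brown); each point is a gene and black bars are medians. The grey band spans percentiles 5 to 95 of all listed genes, from -1.33 to 1.62. All 6 macrophage markers lie above the band, and 6 of 7 adipose Treg markers below it.

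Genes that act downstream of these receptors were mostly within 2-fold. Of 47 measured kinases, ubiquitin enzymes, death effectors and NF-kappaB subunits and inhibitors, of 48 in the list, 2 were higher and 2 lower by 2-fold or more, which is 4.26% in each direction beside 10.9% and 8.41% of all listed genes. Their median log2 ratio was 0.28, with 33 genes above and 14 below 0, beside 50.4% of all listed genes above 0. Under pan T cell scaling the median was 0.08, with 28 above and 19 below 0, and 0 genes were higher by 2-fold or more. Nfkbia, the NF-kappaB inhibitor that is itself an NF-kappaB target, stood at 1304 CPM from 14978 counts against 3798 CPM from 50491 counts, 2.91-fold lower (2.86 to 2.97). Ripk3, the kinase of necroptosis, stood at 29.2 CPM against 87.3 CPM, 2.99-fold lower (2.65 to 3.39). Madd, whose protein binds the death domain of TNFR1, stood at 165 CPM from 1899 counts against 78.5 CPM from 1044 counts, 2.10-fold higher (1.95 to 2.27). Map3k14, the gene of NIK, stood at 58.1 CPM from 668 counts against 29.0 CPM from 385 counts, a log2 ratio of 0.99, beside -1.14 for Traf3 and -0.96 for Traf2. TRAF2 and TRAF3 act on the NIK protein, which RNA counts do not measure, and a link between these values was not tested. Nfkbib, at -0.56, was the third lowest of the list. The levels of Tnfaip3, the A20 deubiquitinase gene, were 774 CPM and 797 CPM.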

How the data were processed

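RNA sequencing measured transcripts in sorted adipose Tregs, in 1 control and 1 knockout library. The submitters' processing notes name HTSeq 0.6.1, TopHat2 2.0.12, edgeR and Bowtie2 2.2.3, and the build mm8. For the annotation and the strand setting no source used here gives a name. The authors deposited whole-number read counts per gene, not normalized. The lowest mean of both counts was 50.5, and the lowest counts were 12 (knockout) and 14 (control). Genes counted weakly, be it in both libraries or nearly absent from 1, are thus not among the listed genes. The mean of both counts and a signed ratio of raw counts, each a score here, were computed by the authors. The authors' log2 fold change, log2 CPM, likelihood ratio score, p-value and adjusted p-value have, per the file headers, the column names that edgeR writes; with 1 library per genotype these p-values are not used here. The authors' deposited log2 fold changes of the 43 members differed from the log2 ratios here by at most 0.25.

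Counts were assigned to genotypes by library names in the sample descriptions and scaled by TMM (edgeR 4.0.16, R 4.3.3) over all 10219 genes. Log2 ratios used CPM + 0.5. A printed fold is the ratio of scaled counts without a pseudocount, with an exact conditional binomial (Clopper-Pearson) 95% counting interval (scipy 1.17.1). The interval covers counting error only and holds no spread between mice or libraries. PCR copies of a molecule are counted as separate reads, which can make it too narrow even for counting error. No p-value was computed, because 1 library per group leaves no spread to estimate; at least 2-fold was used as a fixed rule of size. The calculation was tested on simulated data. Exon lengths, overlaps and shared 50-base words came from GENCODE M21 (GRCm38), with a length for 10200 genes; authors' and reference builds differ, so no coordinates are given beyond the RefSeq promoter windows. Values are given in full for the 32 members that differed at least 2-fold or reached 50 CPM in at least 1 library, and for up to 3 downstream genes at each end, of which 1 is not reported here; the other 11 members are given briefly, and Tnfaip3 and the other Tnfaip genes were named after their values were seen. The members and lists were chosen with earlier results of these data known. Alternatives were other scalings, pseudocounts, a level filter and other sizes.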

Additional observations from a re-analysis of the deposited data

How the results depend on the processing

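With 1 library per genotype no replicate could be left out. No paired analysis was possible because each group has 1 sample. Of 96 alternative list counts and medians, 80 stayed within 1.5 times the count or within the median's binomial interval. That interval is taken over genes, which are not replicates, and is wide: -0.55 to 0.64 for the members and -0.67 to 1.55 for the receptors. Every median met the rule, also the members' median of -0.0066 under pan T cell scaling, so the rule says little about the medians. At 4-fold on log2 of CPM + 0.5, 4 members were higher and 1 lower, beside 3.42% and 1.58% of all listed genes. This leaves out Traf5 and Tnfsf13b, although their scaled counts differ by 4-fold. By role, 1 receptor was lower, 0 ligands were higher and 0 lower, and 0 adaptors were higher and 0 lower. At 1.5-fold, 14 members were lower, 7 receptors were lower, and 4 adaptors were higher and 4 lower. Of all listed genes, 20.2% were higher and 18.5% lower at that size. Requiring the counting interval to lie beyond 2-fold left 4 members lower and 0 ligands lower, and the share of all listed genes under this rule was not computed. With a pseudocount of 5 CPM, 8 members were higher and 5 lower, with 2 ligands higher and 1 lower. The shares of all listed genes fell as well, to 7.38% higher and 5.74% lower. The 5 members that came within 2-fold were Tnfrsf10b, Tnfsf11, Tnfrsf11a, Fasl and Tnfsf13b. With 1 CPM, Tnfrsf11a did. Under pan T cell scaling 2 adaptors were lower, all listed genes split into 839 higher and 1240 lower (40.4% higher, against 56.5% before), and Traf6 was the member whose sign changed. Total-count scaling and DESeq2 size factors changed the call of 0 members. Of 215 alternative values of single members, 179 lay within the counting interval and 36 outside it, and 0 called members changed sign. Depth limited Tnfsf13b, Tnfsf11, Tnfsf14 and Traf3ip1 most, with 24 to 52 counts in the weaker library. The lowest mean of both counts over all listed genes was 50.5. Tnfsf13b, with 24 control counts, and Tnfsf11, with 48 knockout counts, are thus listed only through the library in which they are higher.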

Other observations

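Genes named for their induction by TNF outside the family were looked at after the values above had been seen. Of 6 listed genes whose symbol begins with Tnfaip and a digit, 1 was higher in the knockout by 2-fold or more and 0 were lower. That gene was Tnfaip2, with 569 counts (49.5 CPM) in the knockout, against 57 counts (4.29 CPM) in the control, 11.5-fold higher (8.79 to 15.4). Tnfaip2 is abundant in myeloid cells, and the 6 measured macrophage markers summed to 3657 CPM in the knockout, against 245 CPM in the control; their part in this difference was not tested. Tnfaip8 and Tnfaip8l2, which encode related regulators of cell death and immune signalling, had log2 ratios of 0.63 and 0.61. Tnfaip8l1, Tnfaip3 and Tnfaip1 had log2 ratios of 0.42, -0.04 and -0.27.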
